A study of Mus musculus with 12 samples.

Results

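The 10 genes described here encode the cyclins and kinases that carry mouse cells through G1 and into S phase, together with the cyclins that follow. They are the D-type cyclins Ccnd1, Ccnd2 and Ccnd3, the E-type cyclins Ccne1 and Ccne2, Ccna2, Ccnb1, and the cyclin-dependent kinases (CDKs) Cdk2, Cdk4 and Cdk6. They were chosen by name and not by a measured value, although with earlier results of these data known. They are 10 of the 51467 genes in the deposited count table. All 10 passed the filter on low counts, as did 14033 genes in all. Ccnd2 passed it only through the Dgcr8 KO libraries.

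RNA was measured in mouse embryonic stem cells (ESCs) that were either wild-type (the V6.5 line) or lacked Dgcr8 (Dgcr8 KO), the partner of Drosha in cutting primary microRNA transcripts. Both genotypes were grown in serum with LIF and the 2 inhibitors PD0325901 and CHIR99021, and all were labelled for 30 min with 500 uM of 4-thiouridine (4sU), a uridine analogue. RNA made during the pulse was captured as a measure of nascent transcription (4sU libraries), and RNA depleted of ribosomal RNA gave the steady-state level (total libraries), with 3 replicates in each of the 4 groups. The labels do not say whether replicates were separate cultures, so the p-values measure the spread between these libraries, which may be technical. Each genotype was 1 cell line, so genotype and line cannot be told apart.

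D-type cyclins bind CDK4 and CDK6, and the complexes phosphorylate the retinoblastoma protein to start the passage from G1. E-type cyclins and then cyclin A2 activate CDK2 for S phase entry and DNA replication, and cyclin B1 acts with CDK1 in mitosis. ESCs are known for a short G1, and the ESC-specific cell cycle (ESCC) microRNAs of the miR-290 and miR-302 clusters are known to promote their passage from G1 to S. A microRNA pairs through its seed with the 3′ UTR of an mRNA, and it can both shorten the life of that mRNA and reduce its translation.

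Because Dgcr8 KO cells cannot make most microRNAs, the seed matches of the members bear on the question of stability, and a selection of them is shown here, with the others only counted below. The microRNA sequences are from RefSeq (GRCm38.p6), with the seed (bases 2 to 8) in capitals. The first pair are ESCC microRNAs and share the seed AAGUGCU, while the third has the seed of the miR-17 family shifted by 1 base and the fourth that of the miR-34 family.
mmu-miR-294-3p: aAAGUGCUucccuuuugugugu
mmu-miR-302b-3p: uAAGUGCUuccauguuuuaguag
mmu-miR-17-5p: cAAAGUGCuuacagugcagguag
mmu-miR-34a-5p: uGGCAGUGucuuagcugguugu
The matches below are from the longest annotated 3′ UTR of each gene (GENCODE M21, mm10), on the coding strand, with the match in capitals. All are ESCC matches (AGCACTT or GCACTTA) except that of Ccne2, which is a miR-34 match (CACTGCC or ACTGCCA). Among the matches not shown are the miR-34 matches of Cdk6 and Ccnd1 and the miR-17 match of Ccne2.
Ccnd1 (chr7:144931666-144931694, minus strand): ttccatttcaaAGCACTTttggtcagcta
Ccnd2 (chr6:127129330-127129358, minus strand): tccattagaaaAGCACTTtgaaaattttg
Cdk2 (chr10:128698906-128698934, minus strand): tggcattagatGCACTTAacccggcttcc
Cdk4 (chr10:127067551-127067579, plus strand): aatgcttgccgAGCACTTgtgaggccctg
Cdk6 (chr5:3525320-3525349, plus strand): cccgcacattcAGCACTTAtggactaggta
Cdk6 (chr5:3528422-3528451, plus strand): ataatagaaagAGCACTTAgcagatgggga
Ccne2 (chr4:11203183-11203212, plus strand): ctaaggagttaCACTGCCAttcttttactt

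Total counts per library ranged from 4593914 to 6005526 for 4sU and from 6873708 to 9295245 for total RNA. Dgcr8 fell in total RNA from 102 ± 9.30 to 33.3 ± 1.09 CPM (the count scaled to a common library size after TMM correction; SD, n = 3), and reads remained in every Dgcr8 KO library. The titles and the genotype label of these samples give DGCR8 KO, while their source name reads DDX8KO. Summed over 8 pluripotent stem cell markers, the level was 5062 to 5168 CPM in wild-type and 4996 to 5058 CPM in Dgcr8 KO total libraries. Of the 8 markers, 3 were higher and 5 lower in total RNA at a limma adjusted p under 0.05, and none was past 2-fold. This threshold was reached by 63.9% of all genes tested. In 4sU libraries the sums were 5462 to 5546 CPM in wild-type and 6177 to 6840 CPM in Dgcr8 KO. There 6 markers were higher and 1 lower at that threshold, which 56.3% of all genes reached. For the ratio of total to 4sU RNA, 5 were lower and 0 higher, where 16.1% of all genes passed. Nanog, a pluripotency transcription factor, was the highest of these markers by its mean over all 12 libraries. In total RNA it was at 762 ± 15.3 CPM in wild-type and 672 ± 20.5 CPM in Dgcr8 KO (SD, n = 3). The 8 fibroblast markers summed to at most 3.97 CPM in any library, with Postn and Dcn at 0 counts in all 12 and Thy1 the highest of them by its mean over all libraries. Markers of other embryonic lineages were at lower levels, and some differed between the genotypes. In total libraries, primed epiblast markers (led by Dnmt3b) summed to 132 to 144 CPM in wild-type and 89.3 to 93.4 CPM in Dgcr8 KO. Trophoblast markers (led by Tfap2c) summed to 57.9 to 70.7 and 40.1 to 43.3 CPM. Primitive endoderm markers (led by Gata4) summed to 8.59 to 10.4 and 7.01 to 8.08 CPM. Gata4 itself did not follow this sum, at 4.92 ± 0.820 CPM in wild-type and 6.48 ± 0.765 CPM in Dgcr8 KO (SD, n = 3). Its log2 change in total RNA was 0.36 (limma adjusted p = 0.099). None of these sums overlapped between the genotypes in total libraries, that of primitive endoderm by a narrow margin. In 4sU libraries the primed sum was instead higher in Dgcr8 KO, at 73.4 to 82.6 CPM beside 66.5 to 70.8 CPM in wild-type. There the trophoblast and primitive endoderm sums overlapped between the genotypes. Of the primed markers, named here after their values were seen, limma called Pou3f1 lower in total and 4sU RNA (log2 change -2.42 and -2.40). Limma called Otx2 higher in 4sU RNA (log2 change 1.04). In total RNA Otx2 was higher too, short of 2-fold (log2 change 0.78, limma adjusted p = 1.69e-07). The part of these markers in the changes below was not tested.

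To ask which members changed in level, and whether the change was already present in newly made RNA, Dgcr8 KO was compared with wild-type in total RNA, in 4sU RNA, and in the ratio of total to 4sU RNA. The change of that ratio is the interaction of genotype and library type and is called the stability change, since a transcript that lasts longer has more total RNA for the same synthesis. A gene was called at a limma adjusted p (Benjamini-Hochberg over all 14033 genes) under 0.05 and an absolute log2 change over 1, that is, over 2-fold. In total RNA 5 of the 10 members were called, against 17.2% of all genes tested (9.33% higher and 7.82% lower): Ccnd1, Ccnd2 and Cdk6 rose, and Ccnd3 and Ccnb1 fell. In 4sU RNA 4 members were called, against 14.8% of all genes (9.50% higher and 5.27% lower): the same 3 rose and Ccnb1 fell. In the stability change 1 member, Ccne2, was called, and its ratio rose, against 1.76% of all genes (0.791% higher and 0.969% lower). edgeR made the same number of member calls in each comparison (5, 4 and 1). Ccnd2 entered the test only because it was high in Dgcr8 KO, so its call follows in part from the filter. The 3 comparisons share libraries, since the stability change is the difference of the other two.

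Without the limit on fold change, the adjusted p was under 0.05 for 10 of 10 members in total RNA, for 9 in 4sU RNA and for 4 in stability, where 63.9%, 56.3% and 16.1% of all genes passed. The median log2 change of the members was -0.17 in total RNA, -0.10 in 4sU RNA and -0.03 in stability, beside -0.09, -0.02 and -0.09 over all genes. The list as a whole therefore lay near the median gene, and its members moved in both directions. In such bulk samples fewer cells in a given phase and less RNA per cell cannot be told apart.

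**Figure D1:**
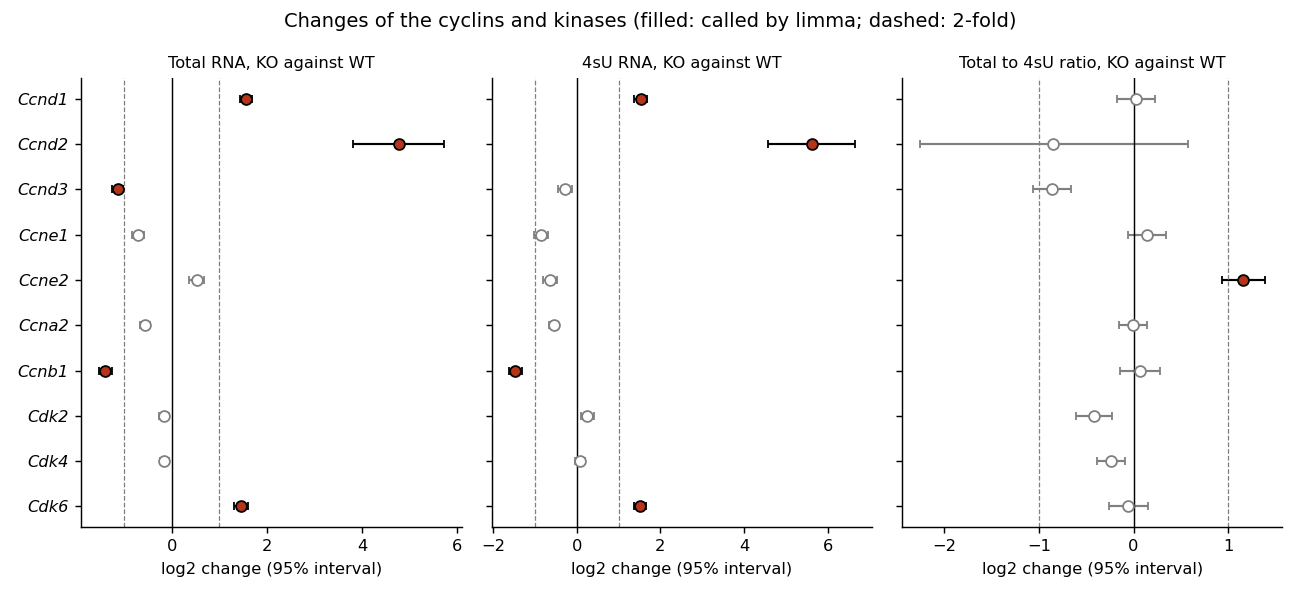
The log2 change of each member in Dgcr8 KO against wild-type (x axis, with 95% confidence interval; the range of the x axis differs between panels) in total RNA, 4sU RNA and the ratio of total to 4sU RNA. Filled points are genes called by limma and dashed lines mark 2-fold; Ccnd1, Ccnd2, Cdk6 and Ccnb1 are filled in both of the first panels, Ccnd3 in the first alone, and Ccne2 in the third alone.

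Among the D-type cyclins, Ccnd1, the partner of CDK4 and CDK6 that responds to growth factors, rose to a similar extent in both kinds of RNA. Ccnd1 (ENSMUSG00000070348.5, chr7:144929931-144939869, minus strand) stood at 117, 116 and 111 CPM in the 3 wild-type total libraries and at 327, 351 and 333 CPM in the 3 Dgcr8 KO total libraries. In 4sU libraries it stood at 80.3, 81.1 and 76.3 CPM in wild-type and at 241, 249 and 200 CPM in Dgcr8 KO. The genotypes did not overlap in either kind of library. The log2 change was 1.55 (SE 0.0625, limma adjusted p = 6.71e-20) in total RNA and 1.53 (SE 0.0747, limma adjusted p = 2.29e-17) in 4sU RNA, both higher than that of 95.0% of all genes tested. The stability change was 0.03 (95% confidence interval -0.17 to 0.23, limma adjusted p = 0.901).

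Ccnd2, another D-type cyclin, was close to absent in wild-type cells and was read in every Dgcr8 KO library. Its counts were 1, 2 and 4 in wild-type total libraries and 79, 74 and 65 in Dgcr8 KO total libraries. In 4sU libraries they were 1, 0 and 1 in wild-type and 39, 55 and 49 in Dgcr8 KO. With so few wild-type reads the size of the rise is uncertain: relative to library size, the pooled reads were 30.8-fold higher in total RNA (95% exact interval 14.7 to 77.4) and 76.7-fold higher in 4sU RNA (20.8 to 639), where the intervals cover counting error only. The limma adjusted p was 2.13e-10 in total RNA and 5.66e-11 in 4sU RNA. Since Ccnd2 passed the filter only through the Dgcr8 KO libraries, these p-values follow in part from the filter. Even after the rise, Ccnd2 remained low, at 9.30 ± 0.350 CPM in Dgcr8 KO total RNA (SD, n = 3). Its stability change (-0.85, 95% confidence interval -2.26 to 0.57) could not be resolved at this depth.

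Ccnd3, the third D-type cyclin, went the other way, and most of its change was in the ratio of total to 4sU RNA. Ccnd3 (ENSMUSG00000034165.16, chr17:47505051-47599691, plus strand) was at 218, 212 and 233 CPM in wild-type total libraries and at 99.6, 101 and 99.6 CPM in Dgcr8 KO total libraries. In 4sU libraries it was at 78.7, 70.7 and 85.6 CPM in wild-type and at 62.6, 65.4 and 65.5 CPM in Dgcr8 KO. The genotypes were well apart in total RNA and did not overlap, by a narrow margin, in 4sU RNA. Ccnd3 fell by 1.14 on the log2 scale in total RNA (SE 0.0589, limma adjusted p = 3.48e-17), while its log2 change in 4sU RNA was -0.28 (SE 0.0787, limma adjusted p = 0.0031). The stability change was -0.86 (SE 0.0983, limma adjusted p = 1.27e-07), past the p threshold but short of 2-fold, and lower than that of all but 3.99% of genes.

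**Figure D2:**
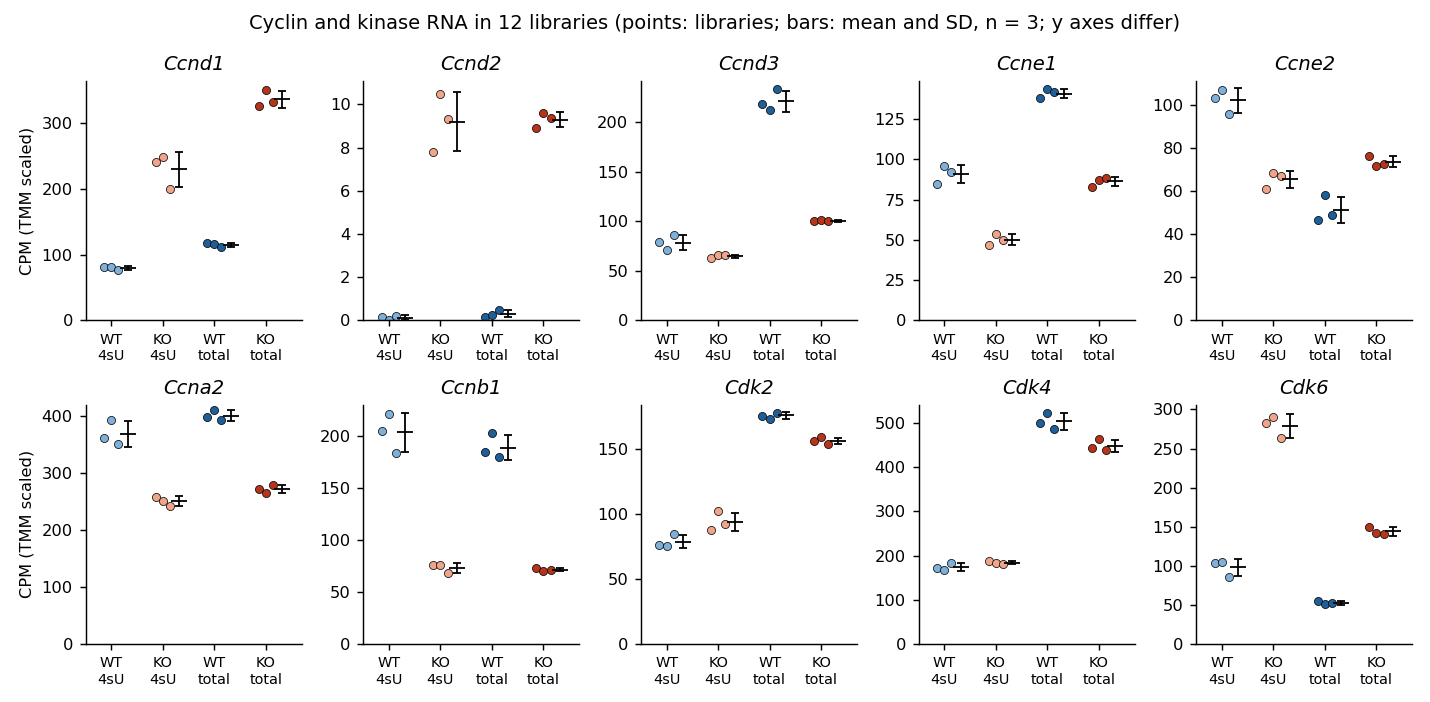
CPM (y axis, starting at 0 and with a range of its own in each panel) of each member in the 4 groups (x axis), with 1 point per library and the mean and SD of 3 libraries beside them. Ccnd1, Ccnd2 and Cdk6 are higher in Dgcr8 KO in both kinds of library, Ccnb1, Ccna2 and Ccne1 are lower in both, and Ccne2 is lower in 4sU but higher in total libraries.

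These changes altered the composition of the D-type cyclin RNA. Per kb of exon, the D-type cyclins together summed to 121 ± 3.51 CPM per kb in wild-type and 132 ± 3.86 in Dgcr8 KO total RNA (SD, n = 3), a ratio of 1.09. Within that sum, the share of Ccnd1 went from 25.4% ± 1.40 to 68.0% ± 0.586 and the share of Ccnd3 from 74.6% ± 1.38 to 30.9% ± 0.592 (SD, n = 3). In 4sU RNA the sum went from 53.2 ± 2.43 to 89.2 ± 6.87 CPM per kb, and the share of Ccnd1 from 39.9% ± 3.03 to 68.8% ± 2.87 (SD, n = 3). The 3 Dgcr8 KO values lay outside the range of the 3 wild-type values for each sum and share, for which the two-sided exact permutation test gives p = 0.1, the smallest that 3 against 3 allows. Wild-type cells thus held mostly Ccnd3 RNA and Dgcr8 KO cells mostly Ccnd1 RNA, at sums that differed far less in total RNA than the shares did.

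**Figure D3:**
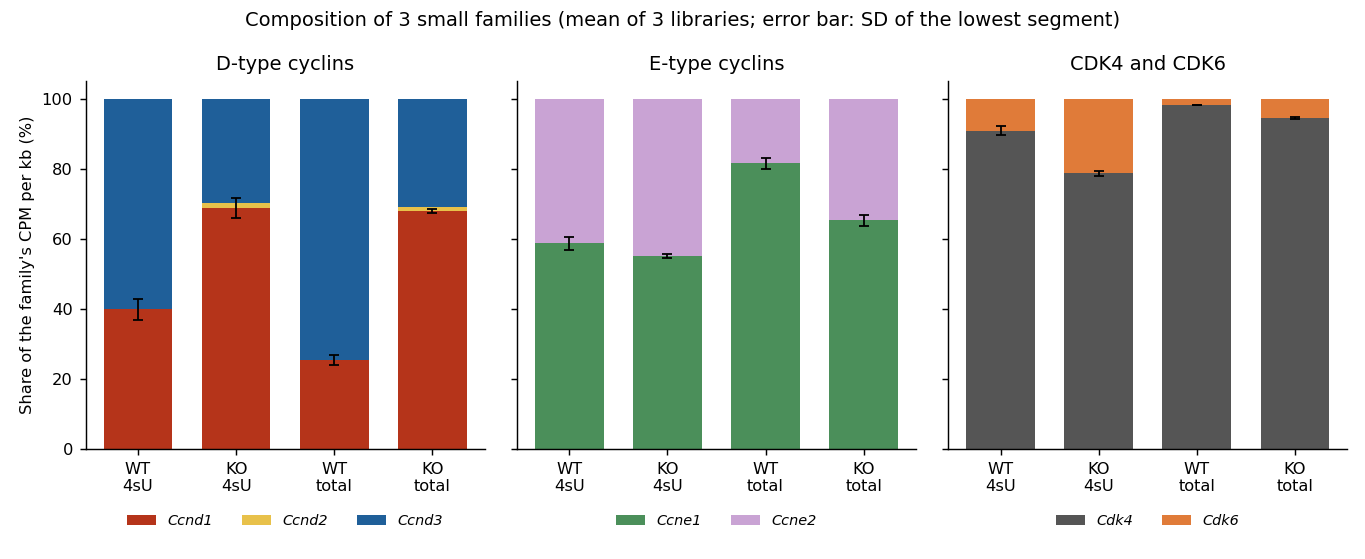
The share of each gene (y axis, percent of the family's CPM per kb, mean of 3 libraries, with the SD of the lowest segment as error bar) in the D-type cyclins, the E-type cyclins and the pair Cdk4 and Cdk6, for the 4 groups (x axis). Ccnd1 holds 25.4% of D-type cyclin total RNA in wild-type and 68.0% in Dgcr8 KO, while Cdk4 holds 98.2% and 94.6% of its pair in total RNA.

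Of the kinases that bind D-type cyclins, Cdk6 rose, while Cdk4 differed by 1.12-fold in total RNA. Cdk6 (ENSMUSG00000040274.11, chr5:3343893-3531008, plus strand) was at 55.0, 50.4 and 52.3 CPM in wild-type and 150, 142 and 140 CPM in Dgcr8 KO total libraries. In 4sU libraries it was at 104, 105 and 85.0 CPM in wild-type and 283, 291 and 263 CPM in Dgcr8 KO. All 6 Dgcr8 KO libraries lay above all wild-type libraries of their kind. The log2 change was 1.46 (SE 0.0743, limma adjusted p = 2.56e-17) in total and 1.52 (SE 0.0689, limma adjusted p = 3.69e-18) in 4sU RNA, with a stability change of -0.06 (95% confidence interval -0.26 to 0.15).

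Cdk4 was the most abundant member per kb in total RNA of both genotypes. Its CPM was 501, 524 and 487 in wild-type and 443, 465 and 440 in Dgcr8 KO total libraries, a log2 change of -0.17 (limma adjusted p = 0.00186). The 4sU libraries overlapped, at 172, 167 and 184 CPM in wild-type and 187, 183 and 181 CPM in Dgcr8 KO (log2 change 0.07, limma adjusted p = 0.294). Its stability change of -0.24 had a limma adjusted p of 0.0241, which became 0.0848 without wild-type replicate 1, 0.12 without wild-type replicate 2 and 0.0941 without Dgcr8 KO replicate 1. Since Cdk4 was so much the higher, the rise of Cdk6 took the share of Cdk4 in their summed total RNA from 98.2% ± 0.123 to 94.6% ± 0.267 (SD, n = 3). The sum itself was 250 ± 8.80 CPM per kb in wild-type and 231 ± 6.59 in Dgcr8 KO (SD, n = 3). In 4sU RNA the share of Cdk4 went from 90.9% ± 1.32 to 78.7% ± 0.778 and the sum from 93.4 ± 3.25 to 114 ± 2.55 CPM per kb (SD, n = 3). The groups did not overlap in any of these, and the two-sided exact permutation test gives p = 0.1, the smallest possible.

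The E-type cyclins, both activators of CDK2, parted from each other in total RNA although both were lower in 4sU RNA. Ccne2 (ENSMUSG00000028212.16, chr4:11191354-11204779, plus strand) was at 103, 107 and 95.9 CPM in wild-type 4sU libraries and at 60.8, 68.3 and 66.8 CPM in Dgcr8 KO 4sU libraries. In total libraries the order was the opposite, with 46.5, 58.2 and 49.0 CPM in wild-type and 76.3, 71.6 and 72.6 CPM in Dgcr8 KO. No library of one genotype reached the range of the other in either kind. The log2 change was -0.64 (SE 0.0799, limma adjusted p = 4.34e-08) in 4sU RNA and 0.52 (SE 0.0774, limma adjusted p = 5.91e-07) in total RNA.

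The ratio of total to 4sU RNA of Ccne2 therefore rose 2.24-fold, a stability change of 1.16 on the log2 scale (SE 0.111, 95% confidence interval 0.93 to 1.39, limma adjusted p = 3.59e-09, edgeR adjusted p = 9.37e-10). This was higher than the change of 98.8% of all genes tested, and it ranged from 1.08 to 1.25 over 16 alternative fits. Significant changes of opposite sign in total and 4sU RNA, with a significant interaction, were seen in 205 genes, or 1.46% of those tested. In wild-type cells the log2 ratio of total to 4sU RNA of Ccne2 was -0.99 (95% confidence interval -1.15 to -0.83), beside -0.90 for Cdk6 and at least -0.10 for the other members. In Dgcr8 KO that of Ccne2 was 0.17 (0.01 to 0.33).

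Ccne1 was lower in both kinds of RNA, by less than 2-fold. It was at 138, 144 and 142 CPM in wild-type and 83.0, 87.5 and 88.6 CPM in Dgcr8 KO total libraries, where the log2 change was -0.71 (SE 0.0604) at a limma adjusted p of 5.80e-12. For 4sU RNA it was -0.86 (SE 0.0786, limma adjusted p = 7.66e-11), and the stability change was 0.14 (limma adjusted p = 0.374). Per kb, the E-type cyclins together went from 86.7 ± 3.17 to 66.1 ± 0.838 CPM per kb in total RNA, and the share of Ccne1 from 81.6% ± 1.53 to 65.3% ± 1.52 (SD, n = 3). In 4sU RNA the share of Ccne1 was 58.8% ± 1.83 and 55.1% ± 0.601 in wild-type and Dgcr8 KO (SD, n = 3).

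Cdk2, their kinase, had small changes of opposite sign. It was at 175, 173 and 178 CPM in wild-type and 156, 159 and 154 CPM in Dgcr8 KO total libraries (log2 change -0.17, limma adjusted p = 0.00962). In 4sU libraries it was at 75.8, 75.5 and 84.7 CPM in wild-type and 87.6, 102 and 91.9 CPM in Dgcr8 KO (log2 change 0.25, limma adjusted p = 0.00364). The stability change was -0.42 (SE 0.0913, limma adjusted p = 0.00131). The change in total RNA was near the resolution of these data, with an adjusted p of 0.0551 in DESeq2 and of 0.0724 with scaling to library size only. It also lay close to the median gene (-0.09), with 45.1% of all genes tested lower.

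The cyclins of the later phases were lower in Dgcr8 KO, to about the same extent in nascent and total RNA. Ccnb1 (ENSMUSG00000041431.16, chr13:100778650-100786570, minus strand), the mitotic cyclin, was at 185, 203 and 180 CPM in wild-type and 72.8, 70.3 and 71.2 CPM in Dgcr8 KO total libraries. In 4sU libraries it was at 205, 222 and 184 CPM in wild-type and 76.2, 75.9 and 67.8 CPM in Dgcr8 KO. The genotypes were far from overlapping. Ccnb1 fell by 1.40 on the log2 scale in total RNA (SE 0.0686, limma adjusted p = 9.70e-18) and by 1.47 in 4sU RNA (SE 0.0755, limma adjusted p = 7.82e-17), with a stability change of 0.07 (95% confidence interval -0.14 to 0.28).

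Ccna2, the cyclin of S phase and G2, went from 400 ± 9.76 to 272 ± 6.88 CPM in total RNA and from 368 ± 22.3 to 250 ± 8.69 CPM in 4sU RNA (SD, n = 3). Its log2 changes were -0.56 (limma adjusted p = 1.44e-11) and -0.55 (limma adjusted p = 2.62e-10), short of 2-fold, and its stability change was -0.01 (95% confidence interval -0.15 to 0.14). Markers of the same phases were lower too. The 10 S phase markers summed to 4852 to 4972 CPM in wild-type and 2574 to 2637 CPM in Dgcr8 KO total libraries, and 4 of the 10 were called lower, led in level by Mcm5, a subunit of the replicative helicase (log2 change -1.18, limma adjusted p = 3.60e-21). The 10 G2 and M phase markers summed to 4167 to 4455 CPM in wild-type and 2595 to 2712 CPM in Dgcr8 KO total libraries, with 1, the mitotic kinase gene Plk1, called lower (log2 change -1.15); Top2a, the highest of them, which untangles chromosomes, had a log2 change of -0.60 (limma adjusted p = 8.24e-14). All 20 had a limma adjusted p under 0.05 in total RNA, where 63.9% of all genes tested did and 7.82% were called lower. The part of these markers in the lower levels of Ccnb1, Ccna2 and Ccne1 was not tested.

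**Figure D4:**
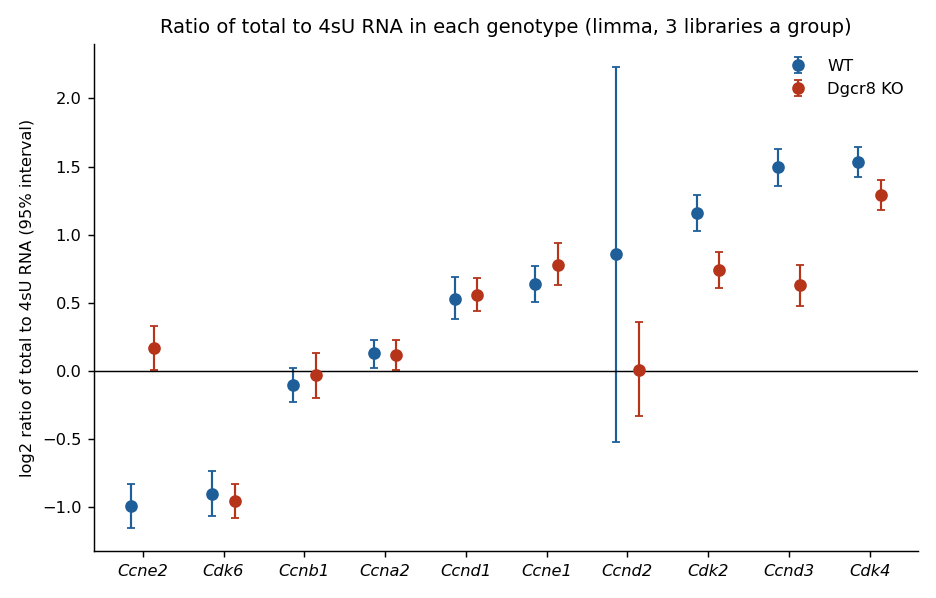
The log2 ratio of total to 4sU RNA (y axis, limma estimate with 95% confidence interval) of each member (x axis, ordered by the wild-type value) in wild-type and Dgcr8 KO cells, 3 libraries a group. The intervals of the genotypes are apart for Ccne2, Cdk2, Ccnd3 and, narrowly, Cdk4, and that of wild-type Ccnd2 is wide because its libraries held 0 to 4 counts.

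Within a genotype, the ratio of total to 4sU RNA differed widely between members. In wild-type cells the log2 ratio was 1.53 for Cdk4, 1.50 for Ccnd3 and 1.16 for Cdk2, against -0.90 for Cdk6 and -0.99 for Ccne2, with 0.08 for the median gene. In Dgcr8 KO it was 1.29 for Cdk4, 0.63 for Ccnd3, 0.74 for Cdk2 and -0.95 for Cdk6, with -0.00 for the median gene. The ratio is relative, since each library was scaled to its own total, and it gives no half-life. Thus Cdk6 differed from Cdk4 in the ratio in both genotypes, while its rise was of the same size in 4sU and total RNA.

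The member whose ratio rose, Ccne2, had none of the ESCC matches shown at the start. ESCC matches were present in the 3′ UTR of 5 of the 10 members, and in 22.3% of the 11821 tested protein-coding genes with an annotated 3′ UTR. Ccnd1, Ccnd2 and Cdk2 had 1 match each, Cdk4 had 2 and Cdk6 had 3, of which a pair were full 8-base matches. Long UTRs hold more matches by length alone, and those of Cdk6 (10217 bases) and Ccnd2 (5173 bases) were longer than the UTRs of 99.6% and 95.7% of these genes. The stability changes of these 5 were 0.03 for Ccnd1, -0.85 for Ccnd2, -0.42 for Cdk2, -0.24 for Cdk4 and -0.06 for Cdk6. Ccnd3, Ccne1, Ccne2, Ccna2 and Ccnb1 had no ESCC match in any annotated 3′ UTR, and their stability changes ranged from -0.86 for Ccnd3 to 1.16 for Ccne2.

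Other families were searched on the same UTRs. miR-17 matches (GCACTTT or CACTTTA), which in Ccnd1 and Ccnd2 overlap the ESCC match, were in 5 members (Ccnd1, Ccnd2, Ccne2, Ccna2 and Cdk2) and in 23.2% of genes. let-7 matches (CTACCTC or TACCTCA) were in 4 members (Ccnd1, Ccnd2, Cdk4 and Cdk6) and in 18.9% of genes. miR-15 matches (TGCTGCT or GCTGCTA) were in 5 members (Ccnd1, Ccnd2, Ccnd3, Ccne1 and Cdk6) and in 31.4% of genes, and miR-34 matches were in 3 (Ccnd1, Ccne2 and Cdk6) and in 25.9%. Over every annotated 3′ UTR of a gene, let-7 matches were in 5 members, with Ccna2 added, and miR-15 matches in 7, with Ccna2 and Cdk4 added. Ccne2 had 1 miR-17 and 1 miR-34 match, the latter an 8-base match 96 bases into its 3′ UTR of 1681 bases. Cdk6 had 4 miR-34 matches, an 8-base match among them, and Ccnd1 had 1, while their stability changes were -0.06 and 0.03. Ccnb1 had no match for any of these families in any annotated 3′ UTR. A match is a stretch of letters and was not tested as a site.

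Levels of different members were compared per kb of exon. In wild-type total RNA the order was Cdk4 (246 ± 8.91 CPM per kb), Ccna2 (110 ± 2.69), Ccnd3 (90.3 ± 4.28), Ccnb1 (75.9 ± 4.82), Cdk2 (72.9 ± 1.13), Ccne1 (70.7 ± 1.33), Ccnd1 (30.7 ± 0.871), Ccne2 (16 ± 1.91), Cdk6 (4.56 ± 0.200) and Ccnd2 (0.0430 ± 0.0237; SD, n = 3). Within that order, Ccnb1, Cdk2 and Ccne1 overlapped their neighbours. In Dgcr8 KO total RNA Ccnd1 was second (90.1 ± 3.41 CPM per kb, SD, n = 3), behind Cdk4 (219 ± 6.65) and ahead of Ccna2 (75.0 ± 1.90), and no neighbours overlapped. Ccnd3 was then sixth, at 40.9 ± 0.416 CPM per kb, and Ccnb1 seventh, at 28.7 ± 0.507 (SD, n = 3).

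The genes most like each member, by the Pearson correlation of log2 CPM over the 12 libraries, are given as a description, since much of each correlation reflects the 4 groups that all genes share. They were Senp7, Ifi35 and Ptpn14 for Ccnd1 (0.9974, 0.9969 and 0.9950). For Ccnd2, whose wild-type counts were few, they were Ldlrad3, Palld and Lpp (0.9945, 0.9930 and 0.9910). For Cdk6 they were Nav1, B3gnt7 and Tns3 (0.9968, 0.9964 and 0.9934), and for Ccnb1 Pgap1, Lncenc1 and Cd37 (0.9959, 0.9956 and 0.9921). Those of Ccnd3 were Pip4k2b, Stx16 and Mtcl1 (0.9917, 0.9917 and 0.9911). Ccne2 had the weakest likeness of the members, with Pank3, Nespas and Cenpq (0.9413, 0.9381 and 0.9165). The single closest genes of the rest were Nasp for Ccne1 (0.9928), Steap2 for Ccna2 (0.9914), Fam25c for Cdk2 (0.9946) and Tbcb for Cdk4 (0.9977).

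The proteins that act on cyclin-CDK complexes were counted from 5 lists. Of the 7 CDK inhibitor genes 6 were tested, and none was called by limma with TMM factors or by edgeR in any comparison. In total RNA, 4sU RNA and stability, 4, 3 and 1 of them had a limma adjusted p under 0.05. Of all genes tested, 63.9%, 56.3% and 16.1% did. An unadjusted p under 0.05 was reached by 5, 4 and 2 of them, for which the share over all genes was not counted. Cdkn1a, which encodes the CDK inhibitor p21, went from 66.6 ± 9.45 to 113 ± 6.89 CPM in total RNA (SD, n = 3; log2 change 0.77, limma adjusted p = 2.31e-08). In 4sU RNA its log2 change was -0.16 (limma adjusted p = 0.0542), and its stability change was 0.92 (limma adjusted p = 9.62e-07), short of 2-fold, while DESeq2 and limma with RLE factors put it at 1.01, past that limit. Cdkn1b, which encodes p27, had log2 changes of -0.16 in total RNA (limma adjusted p = 0.0648) and -0.37 in 4sU RNA (limma adjusted p = 6.84e-05). For Cdkn2d, an inhibitor of CDK4 and CDK6, the log2 change in total RNA was -0.72 (limma adjusted p = 8.74e-05).

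Among 7 other cell cycle cyclins and CDKs, 5 were tested and 2 were called in total and in 4sU RNA, both lower. Of all genes tested, 7.82% and 5.27% were called lower in these comparisons. Ccnf, a cyclin that serves in a ubiquitin ligase, fell by 1.08 on the log2 scale in total RNA (limma adjusted p = 1.51e-17) and Ccng2 by 1.42 (limma adjusted p = 8.71e-07). Cdk1, the kinase of cyclin B1, had log2 changes of -0.79 in total RNA (limma adjusted p = 3.14e-15) and -0.75 in 4sU RNA (limma adjusted p = 5.83e-13), and Ccnb2, a second B-type cyclin, of -0.52 and -0.53 (limma adjusted p = 6.09e-10 and 6.98e-07). Ccng1, a cyclin induced by p53, had a log2 change of -0.50 in 4sU RNA (limma adjusted p = 2.08e-10) beside 0.07 in total RNA (limma adjusted p = 0.161), with a stability change of 0.58 (limma adjusted p = 1.20e-07).

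The CDK-activating kinase, Cdk7, Ccnh and Mnat1, had no call in any comparison by limma, edgeR or DESeq2. In total RNA, 4sU RNA and stability, 3, 1 and 1 of its genes had an unadjusted p under 0.05. By limma adjusted p it was 3, 0 and 1, where 63.9%, 56.3% and 16.1% of all genes tested passed. The log2 changes of these 3 genes in total RNA were -0.24, -0.18 and -0.23, each with a limma adjusted p under 0.05; for Ccnh that of edgeR was 0.06. Of 5 phosphatases and kinases that set the inhibitory phosphates of CDKs, Cdc25c, a phosphatase that activates CDK1, was called in total and 4sU RNA. Of all genes tested, 7.82% and 5.27% were called lower there. On the log2 scale Cdc25c fell by 1.19 in total RNA (limma adjusted p = 1.27e-12) and by 1.18 in 4sU RNA (limma adjusted p = 5.50e-08). Cdc25a, a phosphatase that activates CDK2, had a log2 change of -0.51 in total RNA (limma adjusted p = 1.04e-09), while the inhibitory kinases Wee1 and Pkmyt1 had -0.07 and 0.25 (limma adjusted p = 0.435 and 0.0116). Of 7 genes for cyclin turnover and CDK subunits none was called by limma, edgeR or DESeq2. In total RNA, 4sU RNA and stability, 5, 2 and 3 had a limma adjusted p under 0.05 (63.9%, 56.3% and 16.1% of all genes). As many had an unadjusted p under 0.05. Cdc20, an activator of the anaphase-promoting complex, had a log2 change of -0.91 in total RNA (limma adjusted p = 1.18e-16), Fzr1, its other activator, of -0.19 (limma adjusted p = 0.0084), and Skp2, which targets p27 for degradation, of 0.41 (limma adjusted p = 1.11e-06). No gene of these 5 lists was called in the stability change by limma with TMM factors or by edgeR, and 8 had an unadjusted p under 0.05. Limma called 1.76% of all genes there. DESeq2 called Cdkn1a and no other gene of these lists, and limma with RLE factors also put Cdkn1a past both limits (log2 change 1.01, limma adjusted p = 1.43e-07).

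**Figure D5:**
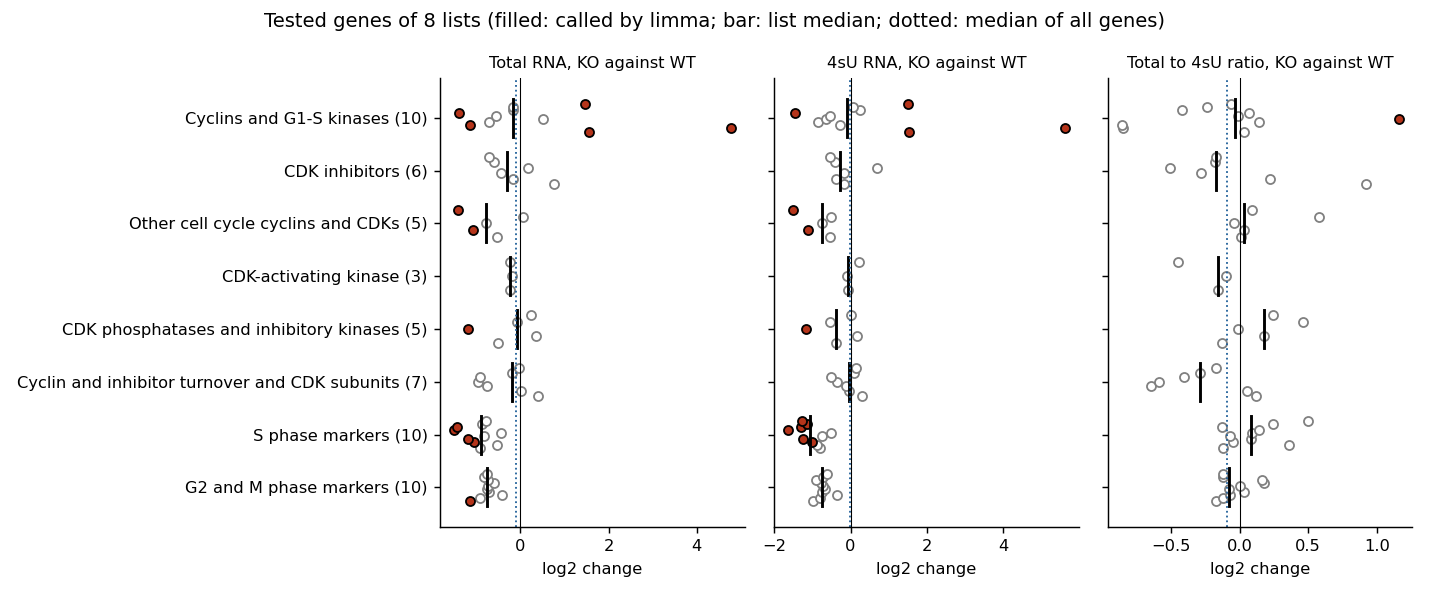
The log2 change in Dgcr8 KO against wild-type (x axis; its range differs between panels) of the tested genes of 8 lists (y axis, number tested in parentheses) in total RNA, 4sU RNA and the ratio of total to 4sU RNA. Filled points were called by limma, bars mark list medians and the dotted line the median of all genes; the members spread to both sides, the S phase and the G2 and M phase markers lie below 0 in both kinds of RNA, and Ccne2 is the one filled point in the third panel.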

How the data were processed

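The authors deposited raw read counts, unscaled, in 1 table of genes by 12 libraries, with the exon length of each gene. Per the file headers, the study's methods and the submitters' processing notes, the authors trimmed reads with cutadapt 1.14, mapped unique reads to mm10 with STAR 2.5.3a and counted them by strand with featureCounts 1.5.3 (GENCODE M14 without rRNA genes). Unique mapping drops reads shared with pseudogenes, and the ERCC rows held 1 count in all, so no absolute scale was possible. Groups were read from sample titles.

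Genes with at least 3 CPM in at least 3 libraries were fitted with all 12 libraries in limma 3.58.1 (R 4.3.3). The filter, limma and the interaction term follow the study's methods; voom weights and TMM factors (edgeR 4.0.16) were chosen here. edgeR's quasi-likelihood test, DESeq2 1.42.0, limma-trend, other scalings and filters, no fold limit, replicate blocks and leaving out each replicate were alternatives. The members, gene lists, seed families and naming rule (of pathway lists the called genes and up to 3 others of highest mean CPM, of marker lists the gene of highest mean CPM; Plk1, Pou3f1, Otx2, Postn and Dcn are outside it) were chosen with earlier results of these data known. Exon lengths served for CPM per kb. On simulated counts for 13874 genes, of 200 genes changed 3-fold 97.5% were recovered for total RNA and 92% for stability, with 7 and 5 false calls. Intervals on counts cover counting error only, since reads had no molecular identifiers.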

Additional observations from a re-analysis of the deposited data

Results flagged for a closer look

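For Ccne2 and for Cdk2, the change in total RNA and the change in 4sU RNA had opposite signs, each with a limma adjusted p under 0.05, and the test of the difference, the interaction of genotype and library type, passed as well. For Ccne2 that difference was 1.16 on the log2 scale (limma adjusted p = 3.59e-09), with all 3 Dgcr8 KO libraries above wild-type in total RNA and all 3 below it in 4sU RNA. For Cdk2 it was -0.42 (limma adjusted p = 0.00131), with all 3 Dgcr8 KO libraries below wild-type in total RNA and all 3 above it in 4sU RNA. However, the change of Cdk2 in total RNA (-0.17) lay close to the median gene (-0.09) and had an adjusted p of 0.0551 in DESeq2. The same pattern was found in 1.46% of all genes tested.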

How the results depend on the processing

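Over 16 alternatives the number of members called stayed at 5 in total RNA, 4 in 4sU RNA and 1 in stability, except that a filter of 3 CPM in all 12 libraries removed Ccnd2 (4, 3 and 1 called); without each replicate in turn it was 5 to 5, 4 to 4 and 1 to 1. With no limit on the fold change it was 10, 9 and 4. Of 477 alternative log2 changes of members, 462 kept their direction and their call (adjusted p and 2-fold together), and 15 reversed, all of them stability changes near 0 with adjusted p of at least 0.54. That of Ccna2 was 0.09 in DESeq2, 0.08 with RLE factors, 0.06 with upper-quartile factors, 0.02 with library size only, 0.0067 with no filter beyond 1 count, 0.00599 with 3 CPM in all libraries, and from -0.06 to 0.01 without each replicate. That of Cdk6 was 0.03 in DESeq2 and with RLE factors, 0.00872 with upper-quartile factors, and from -0.14 to 0.04 without each replicate, and that of Ccnd1 from -0.07 to 0.08 without each replicate. By adjusted p alone, 8 of the 477 lost the threshold: the stability change of Cdk4 in DESeq2 (0.212), with RLE factors (0.197), with upper-quartile factors (0.122) and without 3 of the replicates, and the total RNA change of Cdk2 in DESeq2 (0.0551) and with library size only (0.0724). The log2 ratio of total to 4sU RNA relative to the median gene reversed with 3 CPM in all 12 libraries for Ccna2 in wild-type (-0.24) and Dgcr8 KO (-0.16) and for Ccne2 in Dgcr8 KO (-0.11); this filter and no filter change the genes behind that median, and they made 35 of the 45 other moves among 258 such values.

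Over all genes, 2407, 2073 and 247 were called in total RNA, 4sU RNA and stability. The counts were 4002 and 3801 in total and 4sU RNA with no filter beyond 1 count, 1045, 837 and 115 with 3 CPM in all 12 libraries, and 8971, 7898 and 2261 with no limit on the fold change.

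Same-numbered libraries of 2 groups had correlations of deviations from -0.0825 to 0.105 over 12 pairs. Those between the 4sU and total libraries of a genotype were all above 0, at 0.0361 to 0.105 in wild-type and 0.0161 to 0.0436 in Dgcr8 KO. Those between genotypes ranged from -0.0825 to 0.0777 in 4sU and from -0.00288 to 0.0146 in total libraries. Among the 3 libraries of another group, a library was most like that of its own number in 17 of 24 comparisons, so pairing by number remained possible. Per the study's methods each labelled RNA sample was divided between a 4sU and a total library, but the labels do not say that the numbers mark this, and no pairing was used in the fit reported. With a replicate block by number 2438, 2051 and 293 genes were called, and the members called stayed at 5, 4 and 1. With genotype and number as a shared culture, the replicate block gave 2410, 2075 and 282.

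Depth limits Ccnd2 most, with 0 to 4 counts in each wild-type library.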

Other observations

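Reads of 2 pseudogenes whose names contain that of a member were counted apart from the members, and pseudogenes under other names were not searched. Ccnd3-ps had 0 to 10 counts and Ccnb1-ps 0 to 8 counts per library, beside at least 313 for Ccnd3 and 356 for Ccnb1. No member shares exon bases with a gene on its own strand, and 7 of the 10 share some with a gene on the opposite strand, which strand-specific counting keeps apart.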
